A study of Homo sapiens with 26 samples.

Results

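Chromatin regulator genes were followed through 6 deposited lists of regions from a study of RNA bound to EZH2. The genes were taken by symbol: EZH1, EZH2, SUZ12, EED, and every gene of the KMT, KDM, MLL, SETD, CHD, SMARC, ARID, HDAC, BRD, BRWD, BPTF, DNMT, TET, ASXL, INO80, EP300, EP400, CBX, PHF and JARID families. A total of 71 of the 4083 gene symbols in the lists matched. The pattern reads names only, so it also takes MLLT4 (afadin, AFDN, a cell adhesion protein), MLLT10 and MLLT11 (genes named for fusions with MLL in leukaemia) and SMARCAL1 (a helicase that re-anneals DNA at stalled forks).

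EZH2 is the catalytic subunit of Polycomb repressive complex PRC2, which methylates lysine 27 of histone H3 at silenced genes; SUZ12 and EED are its core partners and EZH1 is the alternative catalytic subunit. Trithorax-type KMT2 enzymes, KDM demethylases, SWI/SNF and CHD remodelers and bromodomain proteins act on the same chromatin, several of them against Polycomb. Such regulators are frequent targets of mutation in glioma and leukaemia.

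The series holds 26 libraries in 15 groups from 3 human cell lines: K562 (chronic myeloid leukaemia), T98G and U87MG (both glioblastoma). RIP, the sequencing of RNA that co-precipitates with a protein, was run on untreated cells with an EZH2 antibody, with an IgG control and on input. Small RNA RIP had 1 library of each kind in K562, 2 in T98G and 2 in U87MG; RIP of fragmented long RNA had 2 of each kind in T98G. A single T98G library is iCLIP, in which RNA is crosslinked to EZH2 first (2 EZH2 antibodies), and polyadenylated RNA was sequenced from U87MG treated with siRNA against EZH2 (siEZH2, 2 libraries) or against GFP (siGFP, 2 libraries). The treatment label of the second siEZH2 library names EZH3 where its title names EZH2.

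The 6 lists are the authors' calls: exons enriched in small RNA EZH2 RIP in K562 (397), T98G (2573) and U87MG (669), full-length RNA targets in T98G (824 rows), retained introns in U87MG (43) and genes called between siEZH2 and siGFP in U87MG (1342). None gives a value per library, so the depth is unknown, there is no replicate error and no test over samples could be made; cell line markers could not be checked either. All intervals are 95% Wilson intervals and cover counting error over genes or peaks only. Nothing in the labels ties the libraries of a group to separate cultures.

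The small RNA lists held chromatin regulator genes 3 to 4 times as often as they held protein-coding genes at large. The plot of listed shares shows the comparison over the 150 protein-coding genes of the annotation whose current symbol matches (MLLT4, now AFDN, is not among them). In K562, 8 of the 150 were listed (5.33%, interval 2.73 to 10.2) beside 1.7% of all protein-coding genes. T98G listed 44 (29.3%, interval 22.6 to 37.1) beside 8.94%, and U87MG listed 16 (10.7%, interval 6.67 to 16.6) beside 2.71%. The T98G full-length list held 19 of them (12.7%, interval 8.26 to 18.9) beside 4.47%. The retained intron list held none of the 150 beside 0.189% of all protein-coding genes. Length moved with listing: the exons of the 150 genes covered a median of 8877 bp, against 4362 bp for other protein-coding genes, and 12079 bp for those in a small RNA list against 7624 bp for those in none. Other protein-coding genes in a small RNA list had a median of 7787 bp; the part of length in the shares was not tested, and expression in these cells is not given by the lists.

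**Figure D1:**
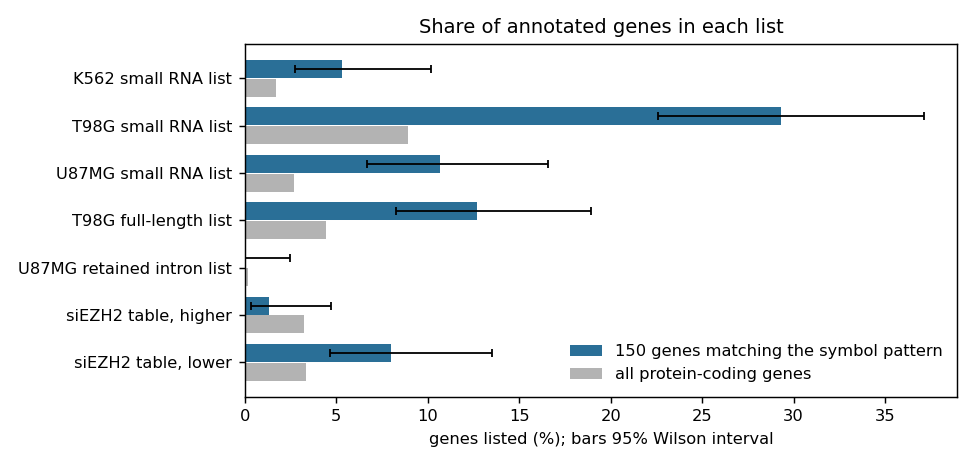
Share of annotated genes in each list, in percent: dark bars, the 150 protein-coding genes matching the symbol pattern, with 95% Wilson intervals; grey bars, all protein-coding genes. The dark bar is longer in the K562, T98G, U87MG, full-length and siEZH2-lower lists, and shorter among genes higher under siEZH2 (1.33% against 3.25%).

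In the 3 small RNA lists, 50 of the 71 genes appeared: 8 in K562, 45 in T98G and 17 in U87MG, through 10, 65 and 17 rows. These rows are 71 distinct exons, a number that equals the number of genes by coincidence. Of these exons, 47 were in T98G alone, 10 in T98G and U87MG, 5 in K562 and T98G, 4 in U87MG alone, 2 in K562 alone and 3 in all lines. Most were internal exons (62 of 71, with 3 first and 6 last exons), and 47 lay wholly in coding sequence. The median width was 116 bp for the K562 exons (192 bp in other genes), 174 bp for those of T98G (187 bp) and 171 bp for those of U87MG (166 bp). Widths ran from 57 bp (PHF21A) to 6510 bp (the last exon of BRWD3).

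**Figure D2:**
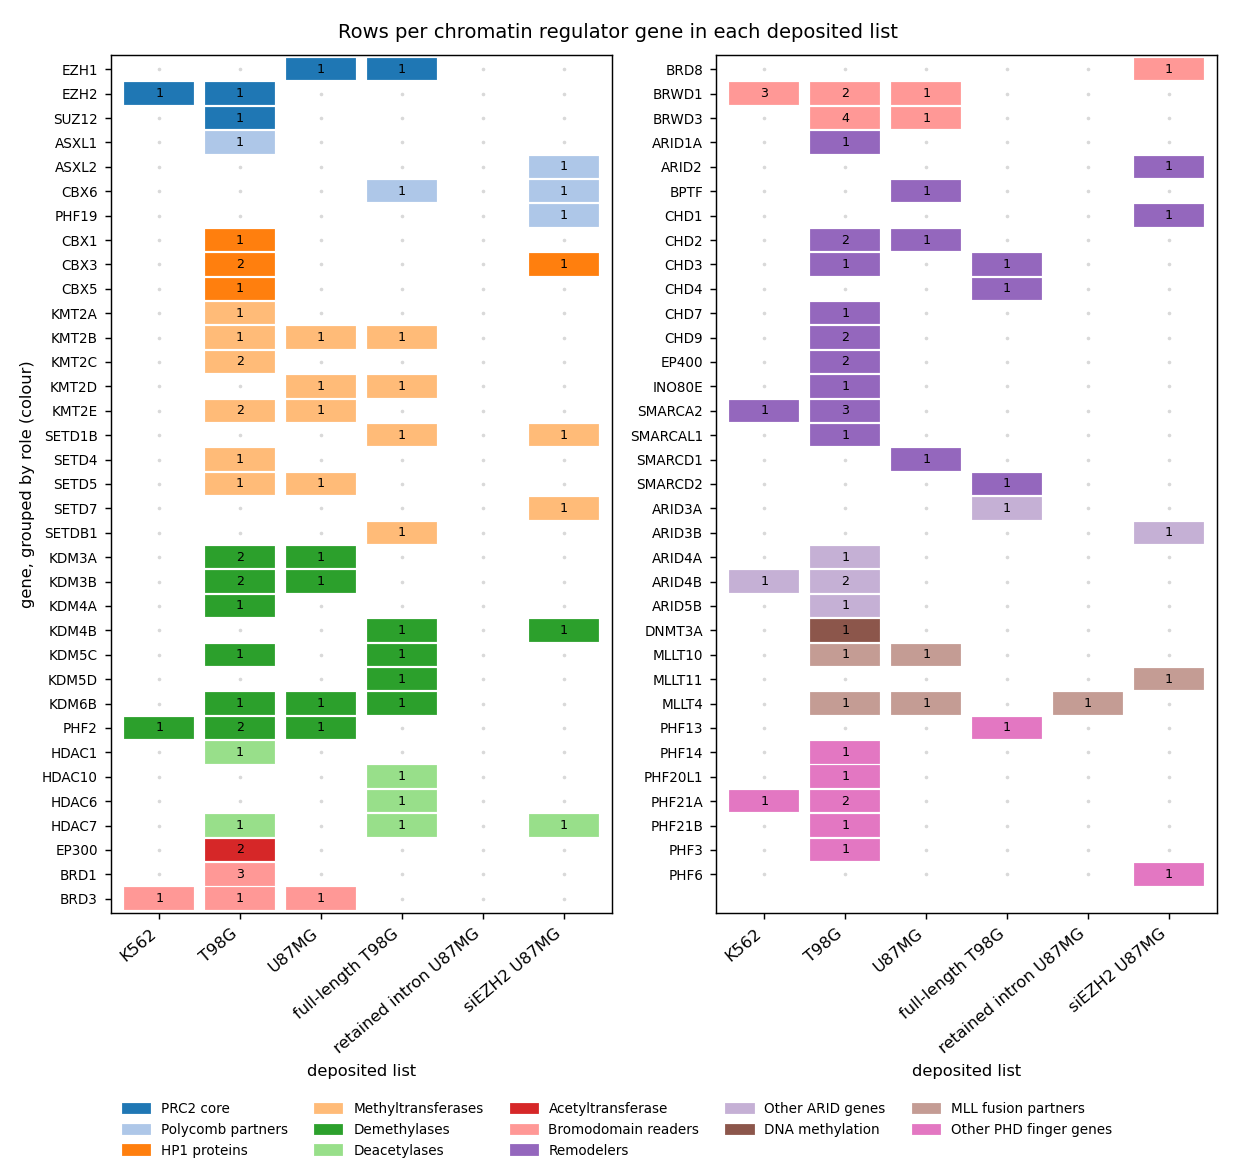
Number of rows (digit in each cell) for 69 of the 71 genes in the 6 lists, genes ordered and coloured by role. Most filled cells are in the T98G column (45 genes); BRD3, BRWD1 and PHF2 are filled in all 3 cell lines.

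The T98G list also gives a distance for each exon, read here as the offset of the small RNA peak from the exon middle, so the bases just downstream of each peak can be shown. The following 30 bases run 5′ to 3′ on the RNA strand from the first base after the peak middle (GRCh37/hg19); they are shown for EZH2, for genes listed in all lines and for genes with AGATCG starting 11 to 15 bases downstream. Capitals mark bases 11 to 30 that belong to any of 10 four-base words, named further on, that were enriched there in T98G peaks of other genes.
EZH2, exon 9 of 20 (chr7:148516736-148516765, minus strand): cccaacacttataagCGGAAGaacacagaa
BRD3, exon 12 of 12 (chr9:136898670-136898699, minus strand): cagaacaggacAGATggatgtcGCACacgc
BRWD1, exon 13 of 41 (chr21:40646337-40646366, minus strand): ggatttggagatttGAGCagttagaatgga
PHF2, exon 15 of 22 (chr9:96428079-96428108, plus strand): cggtgagctcaAGATCGacgagtttcccat
KDM4A, exon 14 of 22 (chr1:44156406-44156435, plus strand): tagccatagtcAGATCGGtaAGAGAGCcag
In PHF2 and KDM4A the word AGATCG starts 12 bases downstream of the peak, whereas in EZH2 the capitals are a run of 6 bases that starts with CGGAAG at base 16.

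EZH2 itself was listed through a single exon. The exon is coding exon 9 of 20 (chr7:148516688-148516779, minus strand, 92 bp) and was in the K562 and T98G lists, not in U87MG. Its T98G peak middle lay 14 bases from the 5′ end of the exon. EZH1 was listed through coding exon 13 of 21 (chr17:40861864-40861955, minus strand), also 92 bp, in U87MG alone. Both whole exons are shown because the 2 catalytic subunits were listed in different lines.
EZH2 exon 9: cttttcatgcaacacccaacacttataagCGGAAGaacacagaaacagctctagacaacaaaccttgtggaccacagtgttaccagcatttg
EZH1 exon 13: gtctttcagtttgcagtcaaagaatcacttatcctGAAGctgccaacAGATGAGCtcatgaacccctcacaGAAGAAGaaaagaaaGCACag
Capitals mark the same 10 words over the whole exon, 6 bases in EZH2 and 23 in EZH1. The exons share a width but little sequence: the best local alignment joined 38 bases with 25 identical. The U87MG list gives no peak position, so where small RNA lay in the EZH1 exon is not known here.

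Of the other PRC2 core genes, SUZ12 was listed in T98G through coding exon 9 of 16 (chr17:30310018-30310123, plus strand), with the peak middle 3 bases past the exon's 3′ end. EED was in none of the 6 lists. A row for SUZ12P, a partial copy of SUZ12 that the symbol pattern does not take, was also in the T98G list (chr17:29061081-29061961, plus strand). The 25 bases ending 10 bases downstream of the SUZ12 peak middle occur once in the genome, as they do for each of the 65 T98G rows of chromatin regulator genes.

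Among the Polycomb partners and HP1 proteins that the symbol pattern takes, small RNA exons were found in T98G alone, the longest list. For the partners this rests on 1 gene, and the Polycomb gene PHC3, outside the pattern, had 1 exon in K562 and 1 in T98G. ASXL1, which works with the H2A deubiquitinase BAP1, had 1 exon. Of the 11 genes of the partner group, 6 (ASXL3, CBX2, CBX7, CBX8, JARID2 and PHF1) were in no list. Absence was common among all matching genes: the lists held 71 of them, MLLT4 included, and the annotation has 150 without MLLT4. All 3 HP1 genes, whose proteins read methylated lysine 9 of histone H3, were listed in T98G, beside 29.3% of all 150 matching genes. CBX1 and CBX5 had 1 exon and CBX3 had 2.

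Of 19 annotated genes with KMT or SETD symbols, 6 were listed in T98G, 4 in U87MG and none in K562. They are grouped here as methyltransferases by symbol alone, and activity on histones was not checked for each. Over all 150 matching genes the listed shares were 29.3%, 10.7% and 5.33%, so few of 19 would be listed in K562 at that share. KMT2B, which methylates lysine 4 of histone H3, was listed through exon 22 of 37 (chr19:36220060-36220197, plus strand), also named WBP7 in the row, in T98G and U87MG. KMT2E exon 17 of 27 and SETD5 exon 9 of 23 were shared by the same pair of lines. KMT2D, the lysine 4 methyltransferase of enhancers, was listed through exon 52 of 55 (chr12:49416373-49416658, minus strand) in U87MG, and its closest relative KMT2C through exons 37 and 55 of 59 in T98G. KMT2A and SETD4 were in T98G alone. The remaining members, SETD1B, SETD7 and SETDB1, were in no small RNA list.

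Demethylases had 4 of their 8 listed genes in more than 1 line, beside 17 of all 71 genes: PHF2, KDM3A, KDM3B and KDM6B. PHF2, a demethylase of histone H3 lysine 9, had exon 15 of 22 (chr9:96427968-96428146, plus strand) in all 3 lines and its last exon in T98G as well. KDM3A and KDM3B, lysine 9 demethylases, each had 1 exon shared by T98G and U87MG and a further exon in T98G. The shared KDM3A row is 4130 bp long (chr2:86714051-86718180, plus strand) and holds coding exon 22 of 26 with flanking intron. KDM6B, which removes the mark that EZH2 writes, had exon 7 of 24 (chr17:7749396-7749615, plus strand) in T98G and U87MG. KDM4A and KDM5C were in T98G alone.

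Bromodomain genes, 6 of the 71, included 2 of the 3 genes with an exon in all lines and 3 of the 4 with 3 or more exons in a list. These counts are small, and BRWD1 and BRWD3 are related genes of 41 exons each. The part of exon number in them was not tested. BRD3, a reader of acetylated histones, had its last exon in all 3 lines (chr9:136895427-136898827, minus strand, 3401 bp, coding end and 3′ UTR). BRWD1 had exon 13 of 41 in all 3 (chr21:40646300-40646398, minus strand), exon 6 in K562 and T98G, and exon 11 in K562, which makes it the gene with most rows among these genes in K562. BRWD3, its relative on the X chromosome, had 4 exons in T98G, of which exon 13 of 41 (chrX:79985415-79985519, minus strand) was also in U87MG. BRD1, a scaffold of an acetyltransferase complex, had 3 exons, in T98G alone. The acetyltransferase EP300 had 2 exons in T98G, and of the deacetylases HDAC1 and HDAC7 had 1 each there.

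Remodelers were listed in T98G for 9 of 35 annotated genes, beside 29.3% of all 150 matching genes. SMARCA2, an ATPase of the SWI/SNF complex, had 3 exons, and exon 3 of 34 (chr9:2032952-2033081, plus strand) was also in K562. CHD2 exon 25 of 39 (chr15:93527560-93527730, plus strand) was in T98G and U87MG. ARID1A, CHD3, CHD7, CHD9, EP400, INO80E and SMARCAL1 were in T98G alone, and BPTF and SMARCD1 in U87MG alone. Of the other ARID genes, ARID4B had exon 23 of 24 in K562 and T98G; its other T98G row is also named for RBM34 on the same strand, and the genes cannot be told apart there. ARID4A and ARID5B were in T98G. Of the 7 DNMT and TET genes, DNMT3A, a de novo DNA methyltransferase, was listed alone, through exon 11 of 23 in T98G. At the T98G share of 29.3% over all 150 matching genes, few of 7 would be listed. PHF21A had a 57 bp 5′ UTR exon in K562 and T98G (chr11:46105106-46105162, minus strand), PHF3, PHF14, PHF20L1 and PHF21B were in T98G, and MLLT10 exon 16 of 23 and MLLT4 exon 3 of 34 were in T98G and U87MG.

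Exons of chromatin regulator genes recurred between lines at higher shares than exons of other genes, with wide intervals. Only the interval for K562 exons in T98G lay wholly above the share of other genes. Of the 10 K562 exons, 8 were also in T98G (80%, interval 49 to 94.3), beside 173 of 387 exons of other genes (44.7%). Of the 17 U87MG exons, 13 were in T98G (76.5%, interval 52.7 to 90.4), beside 422 of 652 (64.7%). Of the K562 exons, 3 were in U87MG (30%, interval 10.8 to 60.3), beside 19.6%. Seen from the longest list, the same shared exons were 8 of 65 T98G exons for K562 (12.3%, interval 6.37 to 22.5, beside 6.9%). For U87MG they were 13 of 65 (20%, interval 12.1 to 31.3, beside 16.8%). Each shared exon had the same start and end in both lists, and no difference between these shares was tested. Several exons of 1 gene were common in T98G, where 16 of 45 genes had 2 or more rows (35.6%, interval 23.2 to 50.2) beside 20.2% of other genes, and in K562 1 of 8 (12.5%, interval 2.24 to 47.1, beside 5.32%). In U87MG none of the 17 genes had more than 1 row (interval 0 to 18.4%, beside 11.9%). Matching genes in a small RNA list had longer exonic sequence (median 12079 bp) than other listed protein-coding genes (7787 bp). The part of length in the rows per gene was not tested.

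In 2 cases the exons listed for related genes were themselves related in sequence. Among 1711 pairs of 59 listed exons of at most 1000 bp, KMT2D exon 52 and KMT2C exon 55 had the highest alignment score, with 127 of 169 aligned bases identical (75.1%). The exons numbered 13 of BRWD1 and BRWD3 came next, with 62 of 86 (72.1%). The score fell from 85 and 38 for these pairs to 18 for the third. The 30 bases after the KMT2C peak in T98G and the stretch of the U87MG-listed KMT2D exon that aligns with them are shown because the capitals fall at the same place in both.
KMT2C, exon 55 (chr7:151841915-151841944, minus strand): agcacctcaaagtcatttcAGAGCACagtc
KMT2D, exon 52 (chr12:49416607-49416636, minus strand): agcatgtctaaggcatatcAGAGCACcttc
Of these 30 bases 23 were identical, and the run AGAGCAC was present in both genes. For BRWD1 and BRWD3 the T98G peak middles lay 32 and 50 bases from the 5′ ends of their exons. The peaks did not fall at matching bases: the BRWD3 bases aligned with the BRWD1 window start 38 bases into the exon.
BRWD3, exon 13, after its own peak (chrX:79985440-79985469, minus strand): atcagcaacaagaatGGAAGAGtatagtgc
BRWD3, exon 13, aligned with the BRWD1 window (chrX:79985452-79985481, minus strand): gaatttggcagtatcagcaacaagaatgga
In the aligned stretch none of its 30 bases is in capitals, against 4 in the BRWD1 window printed above, and 21 of the 30 were identical. The other way round, 19 of 30 bases of the BRWD3 window were identical in BRWD1, where 4 of the aligned bases belong to a word.

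The bases 11 to 15 downstream of the T98G peaks held the start of the library kit's 3′ adapter more often than bases further on, in these genes as in others. The kit ligates this adapter to RNA and primes reverse transcription from it, and the series title names mispriming in reverse transcription; that the words searched here come from this adapter is general knowledge of the kit, not a label. Only the RNA strand was searched, and the position and the sign of the distance had been chosen on all T98G peaks, so the shares are a description. AGAT started 11 to 15 bases downstream in 13 of 63 peaks (20.6%, interval 12.5 to 32.2), beside 25.9% of 2400 peaks of other genes. At 31 to 35 bases it started in 0 of the 63 (Wilson interval 0 to 5.75; 3 counts of 63, the limit that a count of 0 allows, are 4.76%) and in 3.5% of peaks of other genes. The 13 peaks belong to ARID4A, BRD1, BRD3, CBX5, CHD9, HDAC1, KDM3B, KDM4A, KMT2C, MLLT10, PHF2, SMARCA2 and SMARCAL1. The shorter AGA was present in 36.5% against 12.7% further on, beside 44.8% and 14.2% in other genes. The longer AGATC was present in 11 peaks, so that 11 of the 13 AGAT went on with C (84.6%, interval 57.8 to 95.7), against 51.4% in other genes. AGATCG was present in 2 peaks, those of KDM4A and PHF2 (3.17%, interval 0.875 to 10.9), beside 4.62%.

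**Figure D3:**
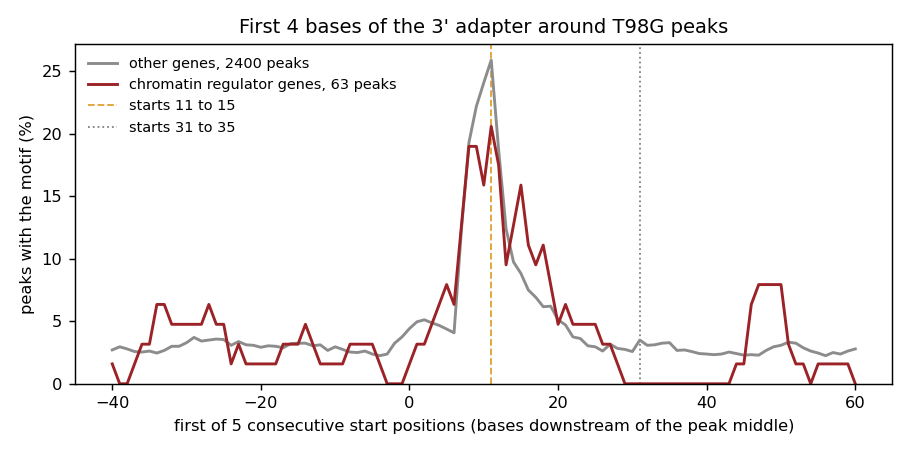
Share of T98G peaks, in percent, with the first 4 adapter bases at any of 5 consecutive starts, against the first of these starts in bases downstream of the peak middle. Both lines peak at the window that begins at 11 (dashed, 20.6% of 63 peaks and 25.9% of 2400). The chromatin regulator line is at 0 from 29 to 43, which includes 31 (dotted), and reaches at most 7.94% between 40 and 60. At every position a single peak weighs more among 63 peaks than among 2400.

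A wider set of words gave a similar picture in more of the genes. The 10 words were taken from peaks of other genes alone, as those most enriched in bases 11 to 30 over bases 41 to 60, and all 10 are parts of the start of the same adapter. Counted in the 63 peaks, GATC was in 23 in the near bases against 1 in the far bases, and AGAT in 24 against 6. As shares, GATC was in 36.5% near and 1.59% far, beside 22.8% and 4.92% in other genes. AGAT was in 38.1% and 9.52%, beside 36.9% and 8.75%. ATCG was in 9 against 0, TCGG in 9 against 3 and CGGA in 11 against 5. GCAC was in 12 against 3 and GAGC in 14 against 2. The purine words differed less, with GAAG in 22 against 13, AGAG in 15 against 10 and GGAA in 18 against 11. Their contrast was weaker than in other genes, but the words were chosen for a high contrast in those genes, which favours them in this comparison. GAAG was in 34.9% near and 20.6% far, beside 42.8% and 11.2% in other genes. AGAG was in 23.8% and 15.9%, beside 32.8% and 9.38%, and GGAA in 28.6% and 17.5%, beside 30.9% and 10%. The words overlap, so these counts are not independent of each other. Purines made up 61.4% of bases 11 to 30 and 53.9% of bases 41 to 60 in these genes (64.4% and 52.4% in others).

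The 10 words covered a median of 6 of the 20 near bases and 0 of the 20 far bases, beside 8 and 0 in other genes. The near count was higher in 47 of 63 peaks (74.6%), equal in 4 and lower in 12. In other genes it was higher in 1839 of 2400 peaks (76.6%), equal in 316 and lower in 245. At least 8 near bases were covered in 42.9% of the 63 peaks, beside 50.9% in other genes. For the far bases this was 17.5%, beside 8.08%. The words were chosen on peaks of other genes, so these comparisons favour other genes. The highest count was 14, in EP300 exon 16, KDM4A and MLLT4. Windows with long capital runs are shown as examples chosen after their values were seen. A run joins overlapping or adjoining words and need not be an unbroken part of the adapter. In MLLT4, EP300 and SMARCAL1 it is not.
DNMT3A, exon 11 (chr2:25469073-25469102, minus strand): accagccaaaaagcccCGGAAGAGCACagc
SETD4, exon 11 (chr21:37408468-37408497, minus strand): tggaatccttgtggaCGGAAGAGCtaaaga
MLLT4, exon 3 (chr6:168271113-168271142, plus strand): tggaacaaagatGATCGGGAAGgcAGATtt
EP300, exon 16 (chr22:41548233-41548262, plus strand): ggaatctaccgaaacaGAAGAGAGAAGCAC
ARID4B, exon 23 (chr1:235335957-235335986, minus strand): aagtagcttccattGATCGGAggagaaagc
SMARCAL1, exon 11 (chr2:217311794-217311823, plus strand): agagctctacacgcAGATCATCGcagtcaa
In DNMT3A, as in EZH2, no AGAT is near the peak and the run starts with CGGAAG. The ARID4B peak is 1 of the 12 with a lower near count, with 7 near bases covered and 8 far bases. In 6 peaks no near base was covered: those of KDM6B and KMT2B, and 1 peak each of BRD1, EP400, KDM3A and PHF2. In 3 of these 6 a word lies wholly or partly before base 11. KDM6B and KMT2B are 2 of them and are shown with no capitals, since the count starts at base 11.
KDM6B, exon 7 (chr17:7749512-7749541, plus strand): agtcagagcacgatagtgaggaggccacac
KMT2B, exon 22 (chr19:36220077-36220106, plus strand): gtacatcgggcagaacgagtggacacacgt
AGAGCAC stands at bases 5 to 11 in KDM6B and ATCGG at bases 5 to 9 in KMT2B, so a count of 0 depends on where the near bases begin. The BRD1, EP400 and KDM3A peaks had no word in any of the 30 bases. Whether such bases had a part in any call was not tested.

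**Figure D4:**
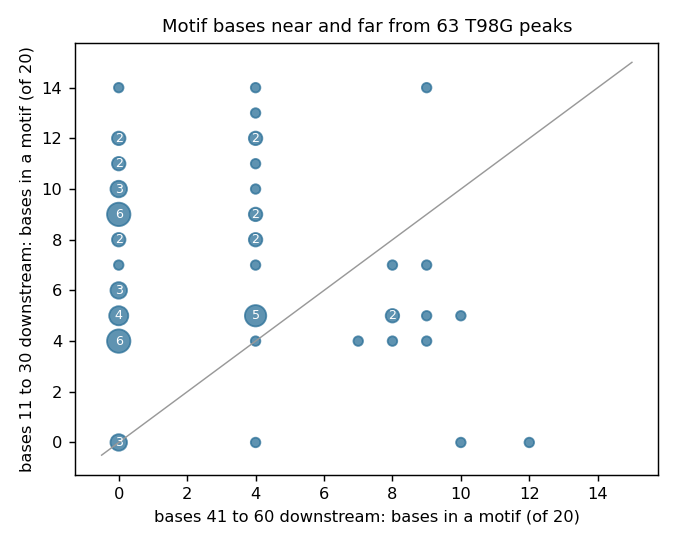
Bases belonging to any of the 10 words among bases 11 to 30 (vertical axis) and bases 41 to 60 (horizontal axis) downstream of 63 T98G peaks, out of 20; point area and white digits give the number of peaks at 1 place, and the line marks equal counts. Most points (47 of 63 peaks) lie above the line.

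The full-length list of T98G named 19 of the genes by their whole gene bodies, the longest 184 kb (KDM4B). By role these included EZH1 of PRC2 (chr17:40852293-40897071), CBX6 of canonical PRC1, the methyltransferases KMT2B, KMT2D, SETD1B and SETDB1, the demethylases KDM4B, KDM5C, KDM5D and KDM6B, the deacetylases HDAC6, HDAC7 and HDAC10, the remodelers CHD3, CHD4 and SMARCD2, and ARID3A and PHF13. KDM5C and KDM5D are related genes on the X and Y chromosomes, and how the authors assigned reads shared by them is not given in the sources used here. The KMT2D row is joint with PRKAG1 and the HDAC10 row with MAPK12, so the gene called cannot be told apart in either. CHD3, HDAC7, KDM5C, KDM6B and KMT2B were also in the T98G small RNA list, and EZH1, KDM6B, KMT2B and KMT2D in that of U87MG. EZH1 was thus a full-length target in T98G and a small RNA target in U87MG, and EZH2 was in the small RNA lists of K562 and T98G alone. A total of 12 of the 19 were in no small RNA list, beside 101 of all 150 matching genes. The same share over all full-length genes was not computed.

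The siEZH2 table named 14 of the genes, 2 higher and 12 lower under siEZH2. The authors' deposited table holds only genes that the authors called with DESeq2 at an adjusted p of 0.05, per the name of the table, and its direction, siEZH2 over siGFP, also comes from that name. It has no row for EZH2, so the knockdown could not be checked there. Of the 150 annotated genes, the 2 higher ones are 1.33% (interval 0.366 to 4.73) beside 3.25% of protein-coding genes, and the 12 lower ones are 8% (interval 4.64 to 13.5) beside 3.35%. Within the authors' deposited table, 14.3% of these rows were higher (interval 4.01 to 39.9), beside 49.3% of all 1342 rows, and the median log2 fold change was -0.78 beside -0.47 for all rows.

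The 2 higher genes were PHF19 and CBX3. In the authors' deposited table PHF19, a PRC2 accessory subunit that reads methylated lysine 36, had a log2 fold change of 1.24. CBX3, the HP1 gamma protein, stood at 0.58 in the authors' deposited table. The other Polycomb partners in the table were lower: the authors' deposited table gives -0.87 for CBX6 and -0.66 for ASXL2. Among methyltransferases the authors' deposited table gives -1.03 for SETD1B, the lowest of the 14, and -0.79 for SETD7, which methylates lysine 4. The demethylase KDM4B was at -0.76 and the class IIa deacetylase HDAC7 at -0.93 in the authors' deposited table. The remodeling genes ARID2 (a subunit of the PBAF complex) and CHD1 were at -0.57 and -0.59 in the authors' deposited table. The authors' deposited table gives -0.87 for BRD8 of the NuA4/TIP60 complex, -0.96 for ARID3B, -0.84 for PHF6 and -0.76 for MLLT11. The 12 lower values thus span less than 0.5 on the log2 scale, with a median of -0.81 beside -0.74 for all lower rows of the authors' deposited table.

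**Figure D5:**
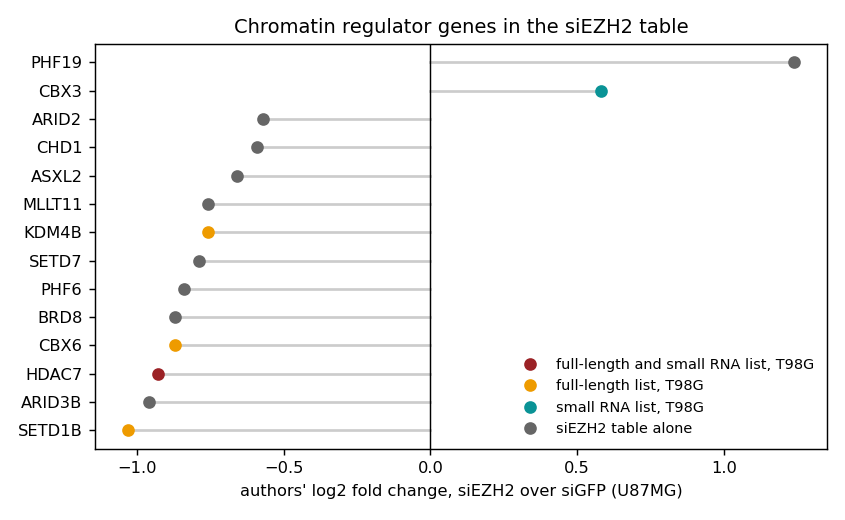
Authors' deposited log2 fold change, siEZH2 over siGFP in U87MG, for the 14 genes in the table (horizontal axis, 1 point per gene, no error given); colours mark genes also listed as T98G targets. PHF19 and CBX3 lie above 0 and the other 12 between -1.03 and -0.57.

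Between 0% and 21.1% of the listed genes of each target list were also called under siEZH2. None of the 17 genes of the U87MG small RNA list was in the siEZH2 table of the same line (interval 0 to 18.4%), beside 11.7% of all 596 symbols of that list. In K562 it was 0 of 8, beside 13.8%. Of the 45 T98G genes, CBX3 and HDAC7 were in the table (4.44%, interval 1.23 to 14.8, beside 9.63% of all symbols), with opposite signs in the authors' deposited table (0.58 and -0.93). Of the 19 full-length genes, 4 were in the table (CBX6, HDAC7, KDM4B and SETD1B; 21.1%, interval 8.51 to 43.3, beside 12% of all symbols), all lower. Of all 111 full-length genes in the table, 15.3% were higher. Each interval holds the share over all symbols. The full-length genes were called in T98G and the fold changes in U87MG.

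The retained intron list had a single gene, MLLT4. Its intron (chr6:168265425-168271064, plus strand) had a deposited score of 1.14, and 34 of the 43 rows scored higher (median 1.42, range 1.03 to 2.68; whether the score is a ratio or a log value is not stated). The intron shares 2 bases with the MLLT4 exon listed in T98G and U87MG, that is, the exon row begins at the intron's end. MLLT4 encodes afadin and is not a chromatin regulator.

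A separate list of 70 chromatin genes outside the symbol pattern was also read. K562 listed 4 of them (PHC3, NCOR1, ZMYND8 and HIRA; 5.71%, beside 1.7% of protein-coding genes) and T98G 23 (32.9%, beside 8.94%). U87MG listed 8 (11.4%, beside 2.71%) and the full-length list 6 (8.57%, beside 4.47%). NCOR1, a corepressor that recruits HDAC3, was listed in all 3 lines, with 3 exons in T98G, and in the retained intron list. Among genes in the authors' deposited table, 2 of the 70 were higher (2.86%, beside 3.25%) and 3 lower (4.29%, beside 3.35%): RNF2, the PRC1 ubiquitin ligase, at 1.42 and RSF1 at 0.53, and BCOR at -0.9, BAZ1B at -0.75 and ZMYND8 at -0.61.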

How the data were processed

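Small RNA reads were trimmed with cutadapt and mapped to hg19 by BWA, per the labels; the authors took reads per exon from bedtools, enriched exons from DESeq2 and peaks from pyicoclip. Per the labels, the authors had long RNA and siRNA reads aligned with Tophat (without strand for siRNA) and iCLIP reads with Bowtie2, counted in genes with featureCounts and called with DESeq2. The full-length list is named under the iCLIP sample. The submitters' processing notes also name CASAVA 1.8. Thresholds, the exon annotation and the pooling of libraries are not given in the sources used here. The authors deposited a log2 fold change per gene for siRNA and a score per retained intron of unstated scale. In the full-length, K562 and U87MG lists the deposited value is the number of names joined in a row; in the T98G list it is a signed distance in bases. The lists have 0 columns with a value of a single library, so no depth, error or test could be had.

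Symbols were matched to GENCODE release 44 on GRCh37 (93.9% to 100% of each list), with older symbols from RefSeq. The T98G peak middle is the exon middle minus the distance; that reading and its sign were inferred from the values and bases over all T98G rows, and the 63 of 65 rows whose middle falls between whole bases were used. Words were counted on the RNA strand with Python 3.11.15 and pysam 0.24.0, exons aligned with Biopython 1.88 (match 1, mismatch -1, gap -3 and -1), and intervals computed with statsmodels 0.14.6. Word ranking was tested on simulated windows with words planted in them. Sequences were read from the GRCh37 genome. Of the 71 genes, 2 are counted but not reported here by name. The members and lists were chosen with earlier results of these data known. Genes described in detail were those of PRC2, those in several lines or with 3 or more exons in a list, those in the full-length, intron or siRNA lists, and those with AGATCG near the peak. Alternatives covered the symbol rule, the denominator, matching by overlap, exon overlap, the position, sign and choice of peaks, and the fold change; limits on peak windows and other numbers of words were added after seeing the data.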

Additional observations from a re-analysis of the deposited data

How the results depend on the processing

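Of 36 alternative values, 28 were classed as unchanged and 8 as moved. A share was unchanged if it lay within the Wilson interval of the reported share. Counts have no such interval and were classed by a fixed limit on their fold difference from the reported count. Without MLLT genes and SMARCAL1 the retained intron list held 0 of the genes, and by overlap with annotated exons it also held 0, since MLLT4 is AFDN in the annotation. With all gene types as the denominator, which adds pseudogenes, the share listed was 18.8% in T98G (3.08% of all annotated genes) and 8.12% in the full-length list (1.45%). AGAT started exactly 11 bases downstream in 6.35% of peaks, and with the other sign of the distance 11 to 15 bases downstream in 3.17%. At an absolute log2 fold change of at least 1 the siEZH2 table kept 1 higher and 1 lower gene. With 5 or 20 words in place of 10, chosen after seeing the data, 39 and 49 of 63 peaks had more covered bases near the peak. No paired analysis was possible because the lists give no values for single libraries, and leaving out a replicate was not possible for the same reason.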

Other observations

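Over whole listed exons of these genes, the word AGATCG was rare. On the RNA strand it was present in 1 of 10 exons in K562 (PHF2), in 7 of 65 in T98G (ARID4B, BRD1, CBX3, KDM3A, KDM4A, KMT2A and PHF2) and in 2 of 17 in U87MG (KDM3A and PHF2). On the opposite strand it was present in 0, 2 and 0 exons. AGAT was present somewhere in 4, 51 and 15 of these exons. No other stretch of the same transcripts was compared.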
